A study of Mus musculus with 2 samples.

Results

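The axon guidance genes described here are 69 of the 21938 protein-coding genes that GENCODE M21 annotates on the mouse autosomes, X and Y. They were taken by symbol alone: the Eph receptors and ephrins, the Slits and Robos, the netrins with Dcc and the Unc5 receptors, semaphorins of classes 3 to 7, plexins, and the neuropilins Nrp1 and Nrp2. The rule uses no measured value. They fall into 13 families, with 35 genes counted as ligands and 34 as receptors. Their chromatin was read from DNase-seq, an assay in which the nuclease DNase I cuts DNA that is not wrapped tightly in nucleosomes. The tissue was left cerebral cortex of male B6CASTF1/J mice, the first-generation offspring of a C57BL/6J by CAST/EiJ cross, at 14 days of age. There was 1 group of 2 biological replicates and no treatment or second condition. The label of replicate 1 names 3 males and that of replicate 2 names 1 male. The libraries were separate biosamples but carry the same donor identifier, so the SD over n = 2 libraries measures the spread between these libraries, which may be partly technical. With a single group no test between conditions exists, and values are given per library with the mean ± SD over n = 2.

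Guidance molecules steer the growing tip of an axon, the growth cone, by attraction or repulsion. Slits, netrins and class 3 semaphorins are secreted, whereas ephrins and the semaphorins of classes 4 to 7 are mostly held on the membrane. Robo, Dcc and Unc5, Eph, and plexin proteins with neuropilin co-receptors read these cues and pass them to the cytoskeleton through small GTPases and kinases. In the cortex these systems are known for guiding callosal and corticofugal axons, for placing migrating neurons, and, after birth, for shaping dendrites and synapses. By the second postnatal week long-range axon growth in mouse cortex is largely over.

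Replicate 1 held 150726 peaks and replicate 2 held 155536, of which 1015 and 1020 lay in a guidance gene or within 10 kb of it. The depth of the libraries is not given in the files. The deposited signal of a peak is its highest cleavage density, scaled by the authors to sequencing depth. Low signals were whole multiples of 0.00474 in replicate 1 and of 0.00614 in replicate 2. If a multiple stands for 1 cut, the median guidance promoter rests on 382.5 and 348.0 cuts, and counting error is 5.11% and 5.36% of it. The tissue label was checked against promoter peaks of marker genes. All 5 pan-neuronal, all 6 excitatory, all 4 inhibitory, all 4 astrocyte and all 4 oligodendrocyte-lineage markers had a promoter peak in both libraries, as did 2 of 3 microglial and 2 of 3 endothelial markers. P2ry12 (microglia) lacked one in replicate 1 and Cldn5 (endothelium) in both. Of the 4 cerebellar and hindbrain markers 1 had a promoter peak in both libraries (En2), and none of the 4 markers of other organs did. So did 66.7% of all protein-coding genes, which makes the counts alone a weak check. Median signals were 3.58 and 4.87 for pan-neuronal and 1.58 and 2.58 for excitatory markers, against 3.47 and 3.91 over all genes with a promoter peak. For inhibitory, astrocyte and oligodendrocyte-lineage markers they ran from 1.00 to 1.36. These are bulk samples, so fewer cells with an open site and a weaker opening in each cell cannot be told apart.

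Nearly every guidance gene had an accessible promoter, but the promoters were mostly of low signal. A promoter was counted as open when a peak overlapped the 1000 bp on either side of any transcription start in the annotation. By that rule 63 of the 69 genes (91.3%) were open in both libraries, against 66.7% of all protein-coding genes. Another 5 were open in replicate 1 alone (2.03% of all genes were), none in replicate 2 alone (1.44%), and 1 in neither (29.8%). On the stricter peak list 59 (85.5%) were open in both, against 62.2%. Guidance genes have more CpG in the 1 kb at the 5′ end (median 60 against 41). At 30 or more CpG the excess was smaller or reversed. With 30 to 60 CpG 95.5% were open in both libraries, against 89.1% of all genes, and with 60 to 90 CpG 100% against 95.9%. With 90 or more the guidance share was lower, 87.5% against 97.2%. Under 30 CpG it was 70.0% of 10 genes, against 30.7%. For open guidance genes the signal of the strongest promoter peak had a median of 1.81 (replicate 1) and 2.14 (replicate 2), or 1.97 ± 0.231. The median over all open protein-coding genes was 3.47 and 3.91 (3.69 ± 0.308), so the guidance genes lay lower in each library by more than the SD between libraries. The gap was narrower among genes over 200 kb, where the 18 guidance genes had 1.75 and 2.13, against 2.19 and 2.44. Guidance genes under 50 kb had 1.72 and 2.33, against 3.76 and 4.29. Those from 50 to 200 kb had 1.99 and 1.87, against 3.13 and 3.44. Only 14 of the 69 (20.3%) exceeded the all-gene median in both libraries, against 32.3% of all protein-coding genes. When the promoter peaks of a gene were summed instead, the medians were 3.86 and 4.12, against 4.91 and 5.59 for all genes, so the guidance genes were still lower but by a smaller ratio. Of the genes open in both libraries, 14 of 63 (22.2%) had a strongest peak above the all-gene median in both, against 48.4%, and 47 lay below it in both. When open protein-coding promoters were ranked by signal and cut at the 25th, 50th and 75th percentiles, the 68 guidance genes open in replicate 1 fell 24, 28, 13 and 3 from the lowest class to the highest. In replicate 2 the counts were 20, 29, 10 and 4 of 63.

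**Figure D1:**
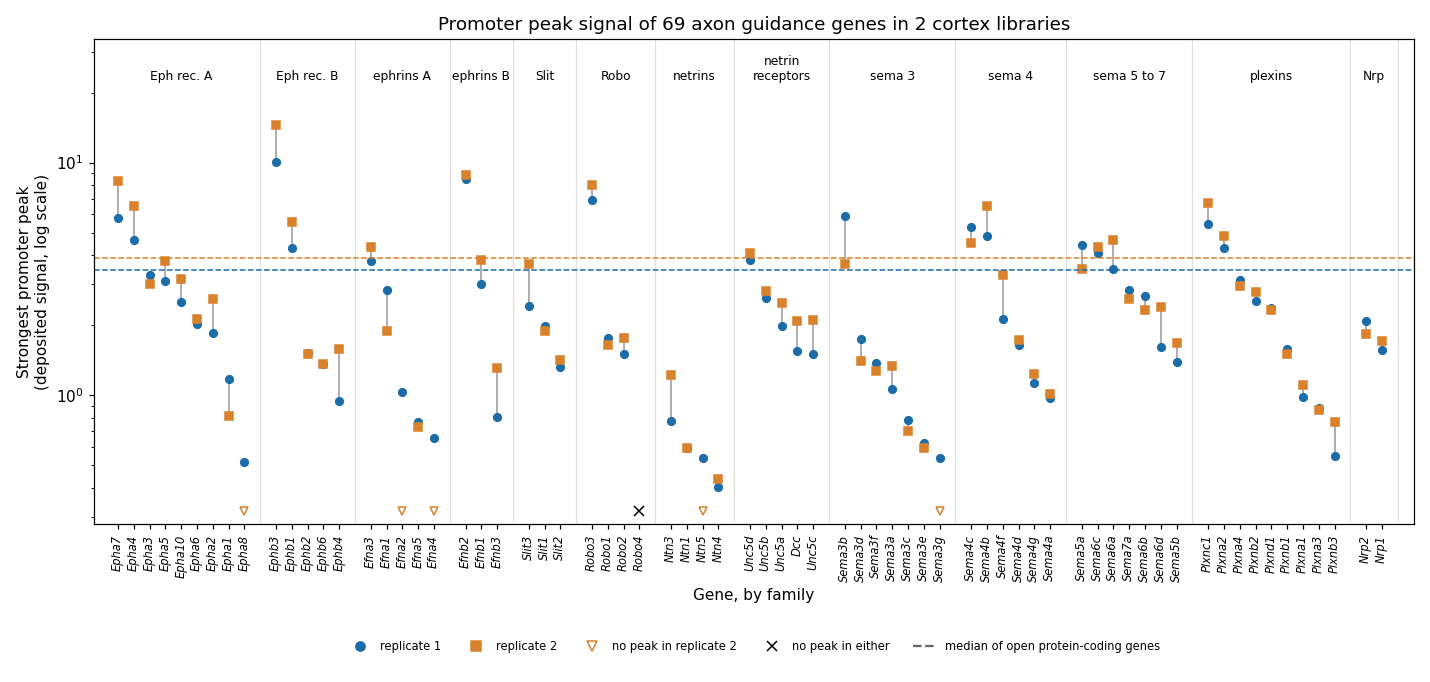
Signal of the strongest promoter peak (log scale, deposited units) for each of the 69 guidance genes, grouped by family, with a circle for replicate 1 and a square for replicate 2 joined by a line. Dashed lines mark the medians of open protein-coding genes, 3.47 and 3.91. Most genes lie below the lines, and Ephb3, Efnb2, Robo3 and Epha7 stand highest. Open triangles mark the 5 genes with no promoter peak in replicate 2, and the cross marks Robo4, with none in either.

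The promoters of receptors and ligands overlapped widely in signal. The 34 receptors had a median promoter signal of 2.03 in replicate 1 and 2.41 in replicate 2, with 32 open in both libraries. The 35 ligands had medians of 1.61 and 1.89, with 31 open in both. The receptor median was higher in each library (2.22 ± 0.266 against 1.75 ± 0.192), while single genes ranged from 0.516 to 10.1 among receptors and from 0.403 to 8.51 among ligands in replicate 1. By the mean of the library medians the highest families were the B-type ephrins (3.00 and 3.81, 3 genes) and the EphA receptors (2.51 and 3.10, 9 genes, 8 of them open in both libraries). The lowest were the netrins (0.568 and 0.596, 4 genes, 3 open in both). None of the 63 genes open in both libraries had its strongest promoter peak within 1000 bp of a start of another protein-coding gene. The share among all open protein-coding genes was not counted, so whether this is unusual is not known. For Epha4, Epha6, Efnb2, Ntn3, Unc5c, Sema4c and Nrp1 the strongest promoter peak also lay within 1000 bp of a start of a noncoding transcript.

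Ephb3 had the strongest promoter of all 69 genes. It encodes a class B Eph receptor, a tyrosine kinase that binds membrane-bound B-type ephrins, and lies on chromosome 16 (chr16:21204755-21223305, plus strand, mm10). Its promoter signal was 10.1 in replicate 1 and 14.5 in replicate 2 (12.3 ± 3.12), above 95.7% and 96.8% of open protein-coding promoters. A ligand for this receptor class, Efnb2 (chr8:8617434-8661242, minus strand), followed, at 8.51 and 8.89 (8.70 ± 0.264). The Efnb2 peak also lies within 1000 bp of a start of the long noncoding RNA 4921522P10Rik. DNase-seq does not tell which start opens the site. The parts of these peaks upstream of the annotated gene start, at Ephb3 the 300 bases nearest to it, are printed because they are the most accessible guidance promoters. They cover chr16:21204455-21204754 on the plus strand and chr8:8661243-8661380 read on the minus strand, 5′ to 3′, in GRCm38. Capitals mark bases inside footprints, the short protected stretches called by the authors, that were listed in both libraries.
Ephb3 promoter: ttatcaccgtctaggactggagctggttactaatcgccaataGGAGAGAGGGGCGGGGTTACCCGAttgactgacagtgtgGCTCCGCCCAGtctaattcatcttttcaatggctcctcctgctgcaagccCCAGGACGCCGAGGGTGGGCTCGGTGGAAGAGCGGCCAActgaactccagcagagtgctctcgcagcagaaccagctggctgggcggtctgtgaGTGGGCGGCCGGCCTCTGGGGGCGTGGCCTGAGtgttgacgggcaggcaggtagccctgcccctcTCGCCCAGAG
Efnb2 promoter: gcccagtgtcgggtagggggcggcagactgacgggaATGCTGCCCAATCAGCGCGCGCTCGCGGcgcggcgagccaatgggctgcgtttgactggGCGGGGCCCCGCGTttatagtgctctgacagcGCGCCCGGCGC
Shared footprints covered 39.0% of the Ephb3 stretch and 38.4% of the Efnb2 stretch. The Ephb3 stretch holds the GC-box GGGCGG or its reverse complement at 4 places, counted from 1 at the 5′ end: bases 51 to 56, 85 to 90, 213 to 218 and 228 to 233. All but the copy at 213 lie wholly in shared footprints. In Efnb2 the copy at bases 94 to 99 has 4 of its 6 bases in a shared footprint, and that at 18 to 23 has none. A match of letters does not show which protein was bound.

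The other class B receptors were far below Ephb3. Ephb1 reached 4.30 and 5.57 (4.93 ± 0.898), above the all-gene median in both libraries. Ephb2 gave 1.52 and 1.51, and Ephb6, whose kinase domain is inactive, 1.36 and 1.37. Ephb4, best known as the venous partner of Efnb2, had the lowest mean, at 0.942 and 1.58 (1.26 ± 0.454), but was below Ephb2 and Ephb6 in replicate 1 alone. Among the B-type ephrins, Efnb1 followed Efnb2 at 3.00 and 3.81 (3.41 ± 0.574). Efnb3, an ephrin of the midline that stops corticospinal axons from recrossing, had only 0.810 and 1.31 (1.06 ± 0.357). The order Efnb2, Efnb1, Efnb3 was the same in each library.

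Class A Eph receptors included several of the stronger guidance promoters. Epha7 gave 5.77 and 8.30 (7.04 ± 1.79) and Epha4 gave 4.66 and 6.51 (5.58 ± 1.31). Both are repulsive receptors with known roles in cortical and thalamocortical wiring, and both exceeded the all-gene median in each library. Epha7 was higher in each library, but their SDs overlap. Epha5 followed at 3.11 and 3.77 (3.44 ± 0.462), within the library spread of Epha3 at 3.28 and 3.02. Epha10 (2.51 and 3.17), Epha2 (1.85 and 2.60) and Epha6 (2.03 and 2.14) had lower means. The weakest of class A open in both libraries was Epha1, a receptor found mainly in epithelia, at 1.18 and 0.817 (0.998 ± 0.256). It had no promoter peak in the stricter list of replicate 2. Epha8 had a weak promoter peak in replicate 1 alone, at 0.516.

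The A-type ephrins, which are anchored to the membrane by a lipid, split into open and weakly open promoters. Efna3 was highest at 3.77 and 4.32 (4.05 ± 0.392). Efna1 gave 2.85 and 1.89 (2.37 ± 0.679), lower in replicate 2. Efna5, the ephrin that forms graded maps in visual and somatosensory cortex, was the lowest of those open in both at 0.767 and 0.731 (0.749 ± 0.0256). Efna2 and Efna4 had a promoter peak in replicate 1 alone, at 1.03 and 0.658. That of Efna4 also lay within 1000 bp of a start of the antisense transcript 4731419I09Rik.

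In the Slit and Robo system the receptor Robo3 had the highest promoter value, from a peak inside the gene. Robo3, which keeps precrossing axons from reading Slit at the midline, gave 6.92 and 8.03 (7.48 ± 0.781), above both other open Robo genes in each library. At its 5′ end alone it gave 1.25 and 1.72, a mean of 1.48 that is below that of Robo2. Robo1 gave 1.77 and 1.65 (1.71 ± 0.0884) and Robo2 gave 1.51 and 1.77 (1.64 ± 0.183). By this measure the 2 receptors of Slit repulsion did not differ beyond the library spread. The Robo1 value, however, comes from a peak 354.8 kb inside the gene. At the 5′ end alone Robo1 averaged 0.487, below Robo2 at 1.64. Robo4, an endothelial Robo, had no promoter peak in either library, and none of the deposited intervals with a false discovery rate under 0.05 touched its promoter windows. Only intervals below that limit are listed, so weaker cleavage was not detectable here. Slit3 led the ligands at 2.42 and 3.65 (3.03 ± 0.877), ahead of Slit1 at 1.98 and 1.90 (1.94 ± 0.0610) and Slit2 at 1.33 and 1.41 (1.37 ± 0.0614). The Slit3 value comes from a peak 57.1 kb inside the gene, and at the 5′ end alone Slit3 averaged 0.969, the lowest of the Slit genes. Outside the promoter window, a peak about 1.6 kb upstream of the Slit3 5′ end had 3.03 in replicate 1 and 2.32 in replicate 2. In replicate 1 it exceeded the peak inside the gene.

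As a family the netrins had the lowest median promoter signal, and their receptors did not share this. Ntn1, the floor-plate attractant, gave 0.597 and 0.596, at different sites in the 2 libraries (13.96 kb and 1.03 kb inside the gene), so the closeness of these values is not that of a single site. Ntn3 gave 0.777 and 1.22 (0.999 ± 0.315) and Ntn4 gave 0.403 and 0.436 (0.419 ± 0.0237), the lowest of the genes open in both libraries. Ntn4 had no promoter peak in the stricter list of either library and Ntn1 none in that of replicate 2. Ntn5 had a peak in replicate 1 alone, at 0.540. All 5 netrin receptors were open in both libraries and each was higher in replicate 2. Unc5d, a marker of upper-layer and multipolar migrating neurons, gave 3.80 and 4.10 (3.95 ± 0.216). Unc5b gave 2.63 and 2.82 (2.72 ± 0.135) and Unc5a gave 1.99 and 2.50 (2.24 ± 0.361). Dcc, the attractive netrin receptor, gave 1.54 and 2.09 (1.82 ± 0.385), and Unc5c, a repulsive one, gave 1.51 and 2.11 (1.81 ± 0.426). These last 2 values were the lowest of the family and did not differ beyond the spread. Every netrin receptor exceeded every netrin in each library.

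The semaphorin classes overlapped in promoter signal. The secreted class 3 genes had a median of 1.07 in replicate 1 and 1.31 in replicate 2, class 4 had 1.89 and 2.50, and classes 5 to 7 had 2.84 and 2.60. Single genes ran from 0.540 to 5.91 in class 3, from 0.971 to 5.31 in class 4 and from 1.40 to 4.44 in classes 5 to 7 in replicate 1. Within class 3, Sema3b stood apart at 5.91 and 3.68 (4.79 ± 1.57). Sema3d (1.74 and 1.40), Sema3f (1.38 and 1.27) and Sema3a, the classical collapsin (1.07 and 1.34), followed. The values of Sema3b and Sema3a come from peaks 7.0 kb and 274.0 kb inside the genes. Neither gene had a peak at its 5′ end in either library. Sema3c (0.781 and 0.706) and Sema3e (0.625 and 0.596; 0.610 ± 0.0207) were lowest of those open in both libraries. Sema3g had a promoter peak in replicate 1 alone, at 0.540. That peak also lay within 1000 bp of a start of the neighbouring gene Nisch.

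Transmembrane semaphorins of class 4 were led by Sema4b at 4.85 and 6.54 (5.69 ± 1.19) and Sema4c at 5.31 and 4.53 (4.92 ± 0.556), which did not differ beyond the spread. Sema4f gave 2.14 and 3.27 (2.70 ± 0.805), Sema4d, a ligand of Plxnb1, 1.65 and 1.73, and Sema4g 1.13 and 1.23. Sema4a was lowest at 0.971 and 1.01, at different sites in the libraries. At the 5′ end alone Sema4c averaged 1.74. In classes 5 to 7 all 7 genes were open in both libraries. Sema6c (4.09 and 4.34; 4.21 ± 0.181), Sema6a (3.50 and 4.63; 4.07 ± 0.797) and Sema5a (4.44 and 3.50; 3.97 ± 0.665) could not be ordered beyond their SDs. The GPI-anchored Sema7a (2.84 and 2.60), Sema6b (2.68 and 2.33) and Sema6d (1.61 and 2.39) lay lower. Sema5b was lowest at 1.40 and 1.68 (1.54 ± 0.198). At the 5′ end alone Sema5a averaged 0.935 and Sema6d 0.792, both below Sema5b.

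All 9 plexins, the receptors of semaphorins, were open in both libraries, over a wide range. Plxnc1, the receptor of Sema7a, gave 5.45 and 6.74 (6.09 ± 0.914), but averaged 1.86 at its 5′ end alone. Plxna2 gave 4.31 and 4.85 (4.58 ± 0.380), and Plxna4, the partner of neuropilins in Sema3a signalling, 3.14 and 2.96 (3.05 ± 0.130). Plxnb2 (2.55 and 2.77), Plxnd1 (2.37 and 2.32) and Plxnb1 (1.58 and 1.5) were intermediate. Plxna1 (0.980 and 1.11) and Plxna3 (0.881 and 0.866) were low, and Plxnb3, known from oligodendrocytes, was lowest at 0.549 and 0.768 (0.659 ± 0.154). The neuropilins, which hold the class 3 semaphorins, gave 2.09 and 1.84 for Nrp2 (1.96 ± 0.178) and 1.57 and 1.71 for Nrp1 (1.64 ± 0.0957). Within the A-type plexins, the lower pair and the higher pair did not overlap in either library.

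The 5 genes open in replicate 1 alone had weak peaks there, from 0.516 to 1.03. The authors also deposited a false discovery rate (q-value) for each accessible interval. Its lowest value within the promoter windows in replicate 1 was 3.20e-17 at Ntn5, 4.89e-06 at Epha8, 0.000271 at Efna2, 0.000703 at Efna4 and 0.00120 at Sema3g. In replicate 2 intervals under 0.05 remained at Ntn5 (46 bp, lowest value 0.00236) and at Sema3g (18 bp, 0.0436), without a called peak. No interval was listed there at Efna2, Efna4 or Epha8. The lack of a called peak does not show that the chromatin was closed.

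At some guidance genes the strongest promoter peak was not the one at the gene's 5′ end. In 15 of the 63 genes open in both libraries (23.8%, against 13.4% of all such genes) the strongest promoter peak was centred over 1000 bp from the annotated 5′ end of the gene, upstream or downstream, in both libraries. In 82.5% of the guidance genes open in both libraries the starts are spread over more than 1000 bp, against 67.7% of all. Among genes with such a spread the shares were 28.8% and 19.0%. The largest distances belonged to Sema6d, whose strongest promoter peak lay 520.6 kb and 520.5 kb downstream of its 5′ end. Its signal there was 1.61 and 2.39, against 0.786 and 0.799 at the 5′ end itself. The strongest promoter peak of Robo1 lay 354.8 kb downstream, at 1.77 and 1.65 against 0.488 and 0.485 at the 5′ end. Sema3a had its strongest promoter peak 274.0 kb downstream and no peak at the 5′ end in either library.

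Plxnc1 likewise took its promoter value from a peak centred 115.2 kb downstream (5.45 and 6.74, against 1.94 and 1.78 at the 5′ end), and Slit3 from one 57.1 kb downstream (2.42 and 3.65, against 0.815 and 1.12). At Robo3 the strongest promoter peak, centred 2.49 kb (replicate 1) and 2.48 kb (replicate 2) downstream, had 5.56 and 4.67 times the signal of the 5′ end. Its centre lay 627 and 637 bp from the nearest annotated Robo3 start. Sema5a showed 5.18 and 3.45 times at 1.37 kb, with the peak centre 1078 bp from the nearest start, and Sema4c 2.70 and 2.98 times at 1.12 kb. Plxnb3 (8.44 and 8.45 kb) and Sema3b (7.0 and 7.01 kb) had no peak at the 5′ end in either library. The excess was small at Plxnb2, Plxna2 and Ntn1, from 1.00 to 1.29 times. For Efna1 and Sema4g the peak centre lay 1.01 kb and about 1.05 kb upstream and the same peak reached the 5′ window. Robo3, Plxnc1 and Sema4c exceeded the all-gene median through these peaks, and at the 5′ end alone they lay below it in both libraries. Whether transcription begins near these peaks was not measured.

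**Figure D2:**
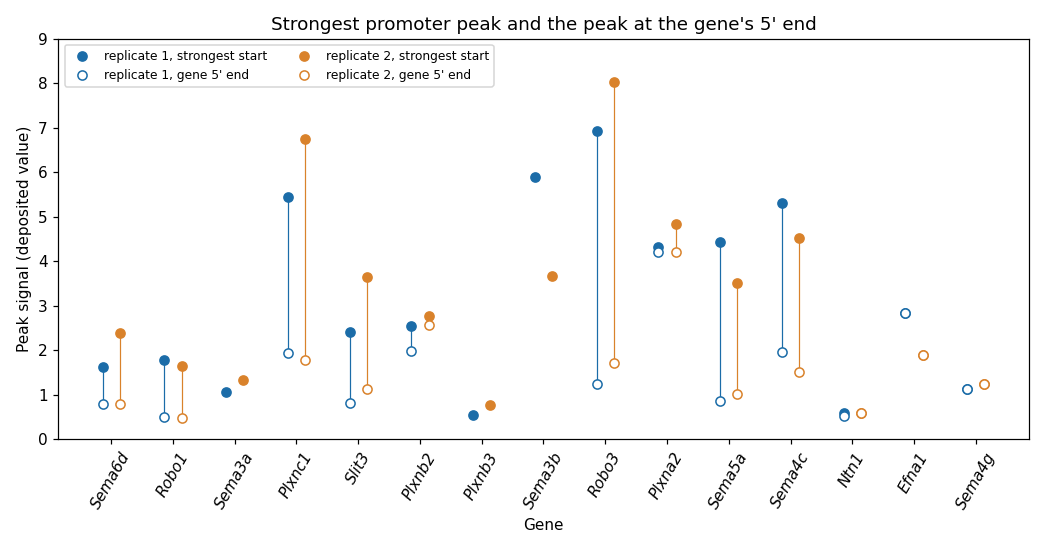
Deposited signal of the strongest promoter peak at any start (filled) and of the strongest peak at the gene's 5′ end (open) for the 15 guidance genes whose strongest peak lay over 1000 bp from the 5′ end in both libraries, replicate 1 in blue and replicate 2 in orange. Genes without an open symbol (Sema3a, Plxnb3, Sema3b) had no peak at the 5′ end. Robo3 shows the widest gap in both libraries.

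Regulatory sites away from starts were searched among peaks over 2000 bp from any annotated start that overlapped between the libraries. There were 513 of these within 10 kb of a guidance gene or inside it, of 77582 in the genome. They were found at 59 of the 69 genes (85.5%), against 60.1% of all protein-coding genes. Among genes under 50 kb the shares were 25 of 35 (71.4%) and 50.6%, and all 34 longer guidance genes had at least 1, against 90.4% from 50 to 200 kb and 98.3% above. Their median signal was 0.687, against 0.670 over the genome, and 2 of them (0.390%) were among the strongest 1% of the genome. Slit3 had the most, 34, followed by Ephb2 with 29, Ephb1 with 24, and Plxna4 and Unc5d with 23 each. None was found for Ephb3, Efna1, Efna4, Robo4, Ntn5, Sema4c, Sema4g, Sema6b, Plxna3 or Plxnb3. Ephb3, the strongest promoter, thus had no distal site by these rules. A peak is assigned by position, and whether it acts on that gene was not tested.

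The strongest distal site lay 3.61 kb upstream of the 5′ end of Sema3b, at chr9:107612741-107612940, in intergenic sequence. Its signal was 9.62 and 9.98 (9.80 ± 0.257), above 99.9% of shared distal peaks in the genome and above the Sema3b promoter itself. The nearest start, 3107 bp away, belongs to Gnai2, a G protein subunit gene. Next was a site at chr10:60760481-60760680, 71 kb downstream of the 5′ end of Unc5b and past its 3′ end, at 7.08 and 6.5 (6.79 ± 0.408). Its nearest start, 7687 bp away, is that of Slc29a3. Ephb2 held 3 of the 10 strongest: introns at chr4:136741881-136742120 (3.27 and 5.79; 4.53 ± 1.78) and chr4:136678561-136678740 (5.25 and 3.73; 4.49 ± 1.07), and an exon (4.06 and 4.04; 4.05 ± 0.0162). The Ephb2 introns thus carried sites above the Ephb2 promoter (1.52 and 1.51) in each library. The fifth site lay 6.14 kb upstream of Sema4a at chr3:88467241-88467400 (5.30 and 3.48; 4.39 ± 1.29), and the next in an intron of Slit1 at chr19:41697501-41697740 (3.31 and 5.14; 4.22 ± 1.30). A site 4.24 kb upstream of Sema7a (4.61 and 3.73) and exonic sites of Nrp1 (4.08 and 3.85) and Efnb2 (3.45 and 4.34) completed the 10. Below the Sema3b and Unc5b sites, their order changed with the library.

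The 6 strongest sites, all intronic or intergenic, are printed in that order on the plus strand of GRCm38, since they are the most accessible candidate regulatory sequences of these genes. Capitals again mark bases in footprints listed in both libraries.
Sema3b upstream site: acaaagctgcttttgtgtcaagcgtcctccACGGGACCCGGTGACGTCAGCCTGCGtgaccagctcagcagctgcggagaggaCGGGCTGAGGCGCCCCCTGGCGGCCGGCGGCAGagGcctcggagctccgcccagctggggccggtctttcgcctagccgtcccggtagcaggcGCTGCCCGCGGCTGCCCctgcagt
Unc5b downstream site: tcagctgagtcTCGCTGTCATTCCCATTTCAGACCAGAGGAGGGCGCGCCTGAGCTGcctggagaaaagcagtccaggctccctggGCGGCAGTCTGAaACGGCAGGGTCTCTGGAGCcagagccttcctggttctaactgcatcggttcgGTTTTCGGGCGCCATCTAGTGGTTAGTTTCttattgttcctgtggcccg
Ephb2 intron site at 136741881: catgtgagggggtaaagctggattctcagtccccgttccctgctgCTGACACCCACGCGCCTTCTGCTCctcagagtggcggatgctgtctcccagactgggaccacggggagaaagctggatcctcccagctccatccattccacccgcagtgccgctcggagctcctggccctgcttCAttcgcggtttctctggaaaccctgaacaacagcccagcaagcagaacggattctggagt
Ephb2 intron site at 136678561: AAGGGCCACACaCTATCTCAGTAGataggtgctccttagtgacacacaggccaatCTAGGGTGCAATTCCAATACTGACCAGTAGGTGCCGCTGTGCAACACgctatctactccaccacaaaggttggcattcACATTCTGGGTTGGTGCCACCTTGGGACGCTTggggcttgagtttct
Sema4a upstream site: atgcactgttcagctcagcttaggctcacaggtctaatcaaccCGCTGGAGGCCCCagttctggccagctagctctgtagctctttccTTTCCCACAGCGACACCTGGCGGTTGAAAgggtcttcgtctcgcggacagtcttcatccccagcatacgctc
Slit1 intron site: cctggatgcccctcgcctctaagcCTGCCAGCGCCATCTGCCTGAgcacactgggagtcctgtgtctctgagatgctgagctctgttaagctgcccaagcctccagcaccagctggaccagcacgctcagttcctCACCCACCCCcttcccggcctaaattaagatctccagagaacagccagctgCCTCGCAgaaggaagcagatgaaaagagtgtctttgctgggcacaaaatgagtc
The Sema3b site contains the cyclic AMP response element TGACGTCA at bases 42 to 49, wholly inside a shared footprint. This word occurred in 1 of the 513 distal sites near guidance genes and in 0.40% of all shared distal peaks, counted in windows of 200 bp. The Unc5b site matches the CTCF consensus at bases 162 to 173, GCCATCTAGTGG, also wholly inside a shared footprint. CTCF is the factor that marks many chromatin loop boundaries. In the Slit1 intron the E-box CATCTG, the reverse complement of CAGATG, lies at bases 35 to 40 inside a shared footprint, whereas another CAGATG and both copies of CAGCTG lie outside. E-boxes of this kind are bound by NeuroD-type and related factors. None of the words searched was found at the Ephb2 site nearer the 5′ end or the Sema4a site. Words were matched letter for letter to each consensus, so near matches, such as to CTCF at the other printed sites, were not counted. Which factor lies in any of these footprints, including that over the Slit1 E-box, was not tested. The GC content of the 6 sites ran from 51.7% at the Ephb2 site nearer the 3′ end to 71.5% at Sema3b.

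As a group the 513 distal sites resembled the genome in these words. CAGCTG was found in 24.2% of them against 20.4% of all shared distal peaks, CAGATG in 27.3% against 25.7%, and the CTCF consensus in 5.65% against 6.2%. The AP-1 word TGANTCA was found in 9.94% against 11.6%, and the SOX word ACAAAG in 15.8% against 14.7%. In promoter windows of 300 bp at the gene 5′ end several words were also near the all-gene share, such as AP-1 (5.8% against 5.94%), CRE (2.90% against 2.34%), NRF1 (1.45% against 1.19%) and T-box (1.45% against 1.31%). Of the 16 words, GGGCGG, the Egr word and the ETS word differed from it by the most percentage points. GGGCGG was present in 47 of the 69 (68.1%), against 45.5% of all protein-coding genes. The Egr word GCGGGGGCG was present in 8 (11.6%), against 4.01%: Epha1, Epha8, Slit2, Sema4g, Sema5a, Sema6b, Plxna1 and Plxnb2. The Egr word can overlap a GGGCGG match where the flanking base fits. These shares were not matched for CpG content, and guidance genes had a median of 60 CpG in the 1 kb at the 5′ end, against 41. Whether the differences in words hold among genes of like CpG content was not tested. The ETS word CCGGAAG was present in 2 (Ephb6 and Plxnb1; 2.90%), against 11.5% of all genes. Words were matched on both strands.

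The lower signal was also seen among genes of like CpG content at the 5′ end, in 3 of 4 CpG classes. The signal is that of the strongest peak at any start. In 15 of 63 guidance genes (23.8%, against 13.4% of all genes open in both libraries) this peak lay over 1000 bp from the 5′ end. For these genes the CpG class does not describe the site whose signal is compared. Guidance genes had a median of 60 CpG in the 1 kb at the 5′ end, against 41 over all genes. With 30 to 60 CpG, the open guidance genes (22 in replicate 1 and 21 in replicate 2) had a median promoter signal of 1.56 and 1.77, against 3.36 and 3.91 for all open genes in that class. With 60 to 90 CpG the 21 guidance genes had 2.68 and 2.60, against 4.85 and 5.68, and with 90 or more the 16 and 14 open ones had 2.23 and 2.64, against 4.50 and 4.87. The guidance genes were lower in each of these classes and libraries. Below 30 CpG, where 9 and 7 guidance genes were open, the medians were 1.07 and 1.65, against 1.24 and 1.41. Across the open guidance genes CpG count and log2 signal had a Spearman rho of 0.232 (n = 68) and 0.248 (n = 63), a description over genes that share a library.

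Guidance genes held many peaks along their bodies, and many of them are long genes. The median number of peaks in the gene and 10 kb on each side was 12 in each library, against 4 over all protein-coding genes, and 39 genes (56.5%, against 14.6% of all) held 10 or more in both libraries. Their median length was 46.3 kb against 17.4 kb. Per 100 kb of searched sequence the medians were 12.3 and 11.1, against 8.91 and 9.00. Among genes under 50 kb, the 35 guidance genes had a median of 7 peaks in each library, against 3. Between 50 and 200 kb, the 16 guidance genes had 19 and 16, against 9 and 9. Above 200 kb, the 18 guidance genes had 26 and 25.5, against 23 and 24, so the difference seen in shorter genes was small there. These 18 are also longer than other genes of their class (median 448 kb against 327 kb), and per 100 kb they held 4.67 and 5.23 peaks, against 6.23 and 6.33. Log10 length and peak number had a Spearman rho of 0.779 and 0.801 over the 69 genes, again a description over genes of the same libraries.

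**Figure D3:**
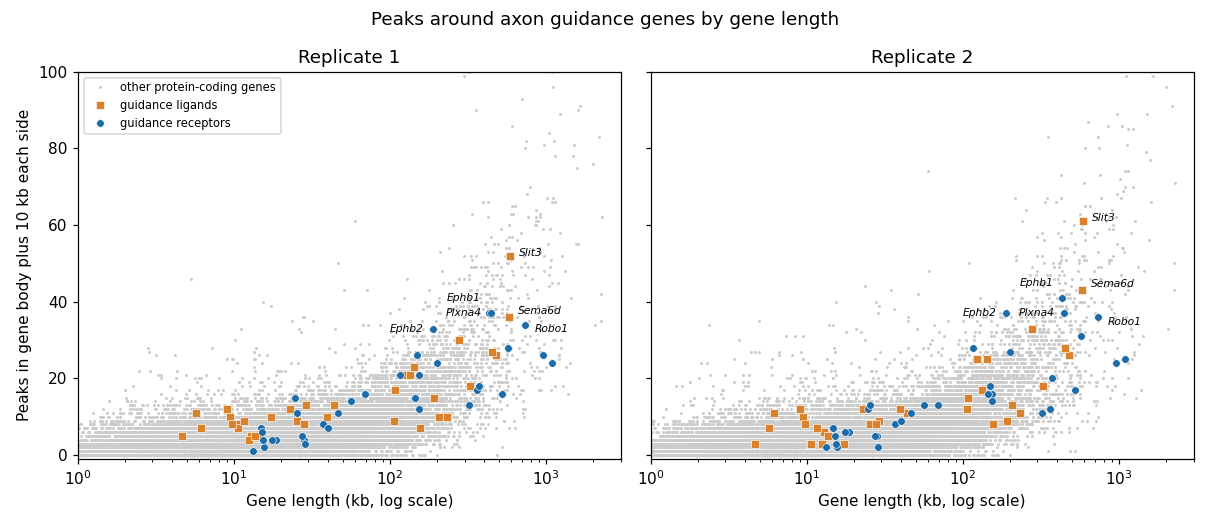
Number of peaks in the gene plus 10 kb on each side against gene length (log scale) in each library, with guidance ligands as squares, guidance receptors as circles and other protein-coding genes in grey. The 6 guidance genes with the most peaks are named, Slit3 highest at 52 and 61. Genes under 1 kb or with over 100 peaks (726 in all) lie outside the axes.

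Slit3 (chr11:35121224-35708507) had the most peaks, 52 in replicate 1 and 61 in replicate 2. Ephb1, with 37 and 41, and Sema6d, with 36 and 43, came next, then Plxna4 with 37 and 37. Ephb2 reached 33 and 37 in a gene of 188 kb, against 433 kb for Ephb1. In Ephb2 32 of 33 peaks in replicate 1 and 33 of 37 in replicate 2 overlapped a peak of the other library, against 42 of 52 and 42 of 61 in Slit3. Robo1 had 34 and 36, Efna5 30 and 33, Unc5d 28 and 31, Sema5a 27 and 28, and Sema3a 26 and 26. The strongest peak lay at the 5′ end in both libraries for Ephb1, Plxna4 and Unc5d. In Robo1 it lay 297.0 kb inside the gene in both, at 3.84 and 3.84, above both its 5′ end and its strongest promoter peak. Efna5, whose promoter was weak, had a peak at 97.2 kb of 2.79 in replicate 1 and 2.84 in replicate 2. Upstream of its 5′ end, outside the promoter window, a peak reached 1.52 at 1.66 kb in replicate 1 and 2.89 at 1.70 kb in replicate 2.

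**Figure D4:**
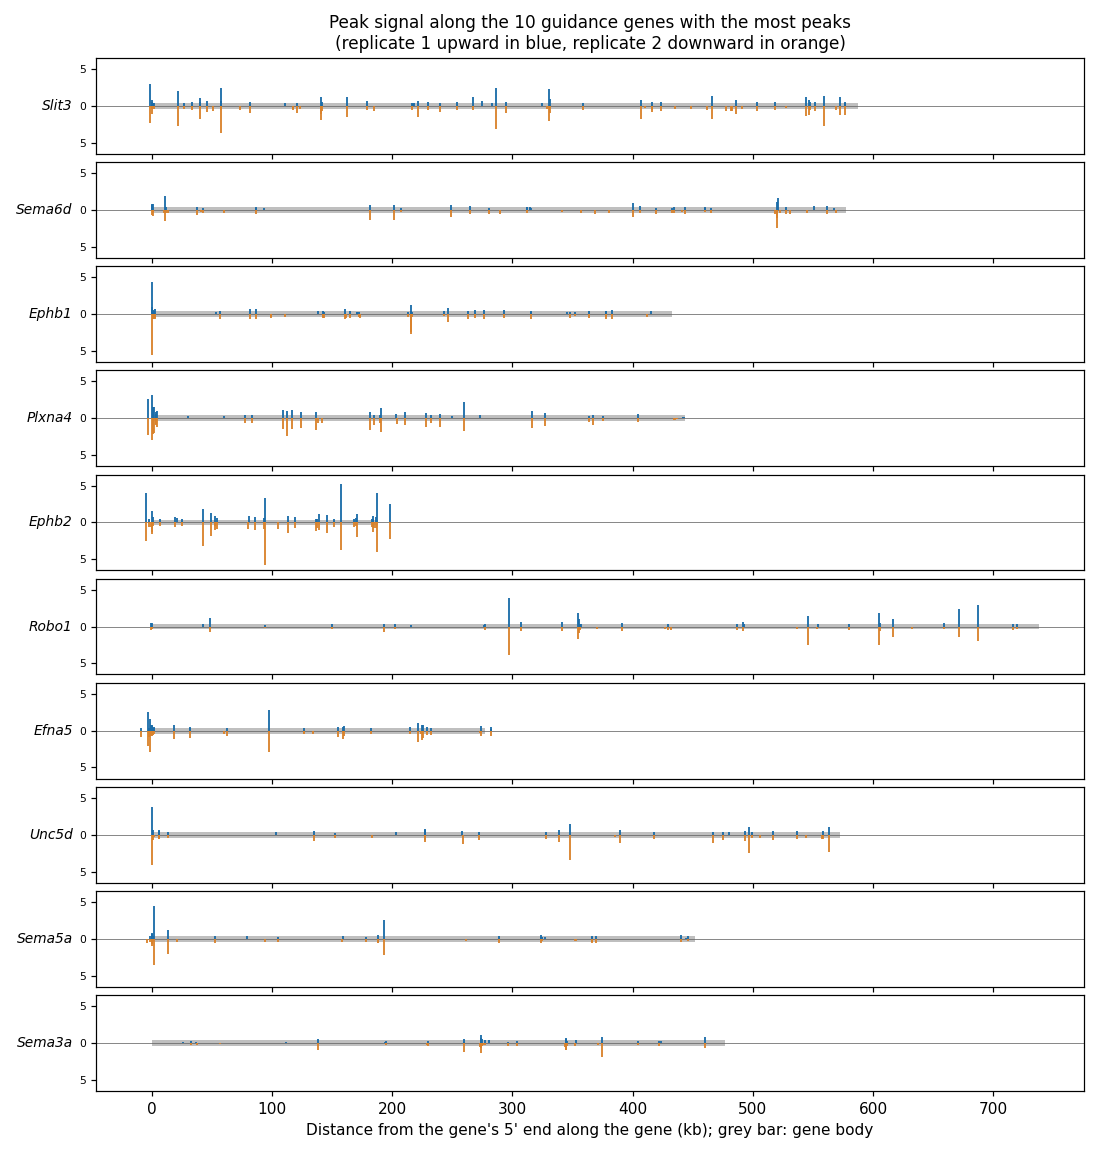
Peaks along the 10 guidance genes with the most peaks, drawn by distance from the gene's 5′ end in the direction of transcription (kb), with signal (deposited units) upward for replicate 1 and downward for replicate 2, and the gene body in grey. Slit3 has peaks along its whole length and Robo1 its highest peak 297.0 kb inside the gene. Ephb2 has several tall intronic peaks, and Sema3a has no peak at its 5′ end.

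At the other end, Robo4 held 1 and 2 peaks, Plxna3 2 and 2, and Ephb4 3 and 2. Counts were lower in replicate 2 than in replicate 1 at Sema6b (10 and 3), Ntn1 (15 and 9) and Efna2 (8 and 3), although replicate 2 had more peaks in all. The searched stretches of Robo3 and Robo4, which are neighbours, share 1 and 2 peaks, and those of Efna3 and Efna4 share 1 and 0. The bodies of Epha1, Ephb1, Ephb4, Ntn3, Ntn5 and Unc5a overlap another protein-coding gene, so some of their peaks may belong to it.

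Of the peaks in and around guidance genes, 59.3% in replicate 1 and 61.8% in replicate 2 lay in introns, 25.9% and 24.8% at promoters, 6.70% and 5.49% in exons and 8.08% and 7.94% between genes. Peaks overlapping a peak of the other library made up 79.4% and 80.0%, against 78.7% and 76.3% of all peaks. Guidance peaks held 2.33 and 2.34 footprints each, against 2.27 and 2.19. The strongest promoter peak contained at least 1 footprint in 68 of 68 open guidance genes in replicate 1 and in 61 of 63 in replicate 2, with a median of 5 and 4, against 4 and 4 over all genes. Among all open genes 98.1% and 97.7% had one, so the guidance share is near the background.

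Promoter signals of guidance genes were correlated between the libraries. The log2 signals had a Pearson r of 0.956 over the 63 genes, against 0.976 over all 14628 genes open in both libraries. The strongest promoter peak was the same site in 56 of the 63 (88.9%), a smaller share than the 94.1% over all genes open in both libraries. The site differed between libraries at Ephb6, Efnb1, Ntn1, Sema3f, Sema4a, Sema4d and Plxna1. The median log2 ratio of replicate 2 to replicate 1 was 0.12 (SD over genes 0.31), against 0.22 (0.33) for all genes, and 41 of 63 (65.1%) were higher in replicate 2, against 74.7%. The largest ratios towards replicate 2 were at Ephb4 (0.75 on the log2 scale), Efnb3 (0.70), Ntn3 (0.65), Sema4f (0.62) and Slit3 (0.60). Those towards replicate 1 were at Sema3b (-0.68), Efna1 (-0.59), Epha1 (-0.53), Sema5a (-0.34) and Sema3d (-0.31). With 1 library on each side these ratios have no replicate check.

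**Figure D5:**
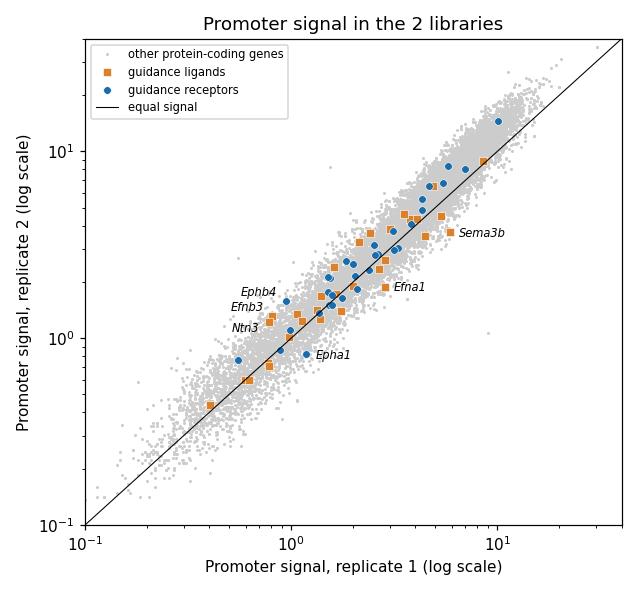
Promoter signal in replicate 2 against replicate 1 (both log scale, deposited units) for genes open in both libraries, with guidance ligands as squares, guidance receptors as circles, other protein-coding genes in grey and the line of equal signal. The 3 guidance genes with the largest ratio in each direction are named, and Sema3b lies farthest below the line.

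A list of 58 partners and effectors, the adhesion molecules, adaptors, GTPases and kinases that act with or below these receptors, had stronger promoters than the ligands and receptors. Of these, 56 (96.6%) were open in both libraries, against 66.7% of all protein-coding genes. The list has a median of 76.5 CpG in the 1 kb at the 5′ end, against 60 for the guidance genes and 41 for all genes. Its median gene length is 117 kb, against 46.3 kb and 17.4 kb. Their median promoter signal was 3.69 and 3.82 (3.75 ± 0.0930), close to the all-gene median. Gsk3b (12.1 and 22.1), Nck1 (11.4 and 14.6), Cdk5 (9.78 and 15.6), Rhoa (10.1 and 14.9) and Dpysl2, which encodes the collapsin response protein CRMP2 (10.3 and 14.1), were the strongest. Each of these exceeded every guidance promoter other than that of Ephb3 in both libraries. Draxin, a netrin antagonist, had a promoter peak in replicate 1 alone (0.549), and Flrt1 had none. In body peaks the list had medians of 15 and 14, near the 12 and 12 of the guidance genes.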

How the data were processed

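DNase-seq peak lists, footprints and cleavage-rate intervals were used from 2 libraries of left cerebral cortex, which the authors derived separately for each library from alignments to mm10, without pooling, per the file headers and deposited notes. The aligner and the callers, with version numbers, are not given in the sources used. The peak signal was deposited as the highest cleavage density scaled to depth, and the q-value (a p-value adjusted to a false discovery rate) per interval was deposited only under 0.05. Of 2 peak lists per library, the larger was used and the stricter one (89013 and 92506 peaks) served as an alternative. The other unit, the constant column of the footprint files, was left aside.

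The annotation was GENCODE M21, with GRCm38 as sequence. Promoter peaks overlapped, by at least 1 bp, 1000 bp on either side of any annotated start, and the strongest set a gene's promoter signal. Body peaks overlapped the gene or 10 kb on each side. Peaks were classed by their centre as promoter, exon, intron or intergenic, and libraries were compared by overlap of at least 1 bp. The 16 words were matched on both strands.

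The members were taken by a rule on symbols, but the choice of this set, like that of the gene lists, the words and the alternatives, was made with earlier results of these data known. Named genes are, per family, the 3 with the highest mean promoter signal, the lowest open in both libraries and any without a promoter peak in a library; the 10 with the most body peaks; the 10 strongest shared distal peaks; and the 5 largest library ratios in each direction. Other genes are named with their values, chosen after these were seen. Promoter and overlap counting was tested on simulated data, where every simulated state was recovered. Alternatives were the peak list, the promoter window, the 5′ end alone, the sum of promoter peaks, the flank, the overlap, the scaling and single libraries. Python 3.11.15, NumPy 2.4.6, SciPy 1.17.1, pysam 0.24.0 and matplotlib 3.10.9 were used.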

Additional observations from a re-analysis of the deposited data

How the results depend on the processing

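The number of guidance genes open in both libraries stayed between 59 and 66 over the stricter peak list, windows of 500 and 2500 bp, the 5′ end alone and the stronger peaks, and was 63 or 68 with a single library. Of all protein-coding genes, 62.2% were open in both on the stricter list, 64.8% at 500 bp, 70.5% at 2500 bp and 61.9% at the 5′ end alone. The median promoter signal of 1.97 became 1.70 at the 5′ end alone and 3.99 as the sum of promoter peaks (all genes 4.91 and 5.59 in the libraries), and ran from 1.81 to 2.14 leaving out a library. It stayed below the all-gene median in each library under every window and list, but for the sum of peaks within 2500 bp it was 5.27 against 5.27 in replicate 1 and 5.65 against 5.98 in replicate 2. The median of 12 body peaks became 9 without a flank, 21.5 with 50 kb, 7.5 on the stricter list and 7.5 without peaks near starts, and was 12 in each library alone. Over all protein-coding genes the medians under these 4 settings were 2, 12, 3 and 2 in each library. The share of peaks overlapping the other library, 79.4% and 80.0%, averaged 73.0% when an overlap of at least 50% of the peak was required. Of the named genes, 10 moved by more than their SD at the 5′ end alone and 3 had no value there, while the stricter list moved 1 and left 4 without a value. No paired analysis was possible because the design holds only 1 group. With 2 libraries the SD itself is poorly known, and depth is not given in the files, so a promoter without a listed peak was below detection and is not shown to be closed.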
